A study of Vitis vinifera with 72 samples.

Results

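Ripening berries of the grapevine cultivar Cabernet Sauvignon were compared between 3 growing areas within 1 season. The 9 libraries, of 72 in the series, were those labelled Cabernet Sauvignon, growth stage MR (mid-ripening, BBCH code 83) and year 2011, with 3 each from Bolgheri, Montalcino and Riccione. Bolgheri lies on the Tuscan coast, Montalcino in the hills of inland Tuscany and Riccione on the Adriatic coast. All 9 libraries share the cultivar, the season, the stage and the tissue, the berry pericarp (skin and flesh), and no agent or allele is named in the labels. The rest of the series covers the cultivar Sangiovese (SG below), the season 2012 and the earlier stage PV (pre-veraison, BBCH code 79) in the same areas. Replicates are biological per the series' design text. As far as the labels tell, each area is 1 site per cultivar, so an area cannot be told apart from its site, its vines or its sampling day. Within-season area comparisons ask how strongly the same cultivar differs by where it grows. Over all genes, each was set beside the same pair of areas in other conditions. These were Cabernet Sauvignon at MR in 2012, Sangiovese at MR in 2011 and Cabernet Sauvignon at PV in 2011. Lists and single genes are compared with them only in part.

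At mid-ripening a red berry accumulates hexoses, softens its cell walls and loads anthocyanins, the red pigments, into the vacuoles of its skin. MYB transcription factors of the A group activate pigment synthesis, and flavonols, which absorb ultraviolet light, are made from the same precursors. Small heat shock proteins are chaperones that hold unfolding proteins in a state from which they can be refolded, and plants make them in large amounts after heat. Whether their transcript levels here followed conditions at sampling was not tested.

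Values are FPKM, fragments per length of transcript scaled to library size, and levels are therefore compared per length. Differences are on the log2(FPKM + 1) scale, which understates the change of genes with low values, and the first-named area minus the second gives the sign. A gene passed when its adjusted p, from limma with Benjamini-Hochberg adjustment over 20443 tested genes, was below 0.05. The 27 gene lists used hold IDs recalled from published grapevine gene names and not checked against an annotation. Roles are therefore given for lists, and single members are identified by their rank in mean FPKM over the 9 libraries. Reads carry no strand, so overlapping and antisense genes cannot be told apart, and values of near-identical copies, as among the small heat shock proteins and stilbene synthases, are uncertain. In these bulk samples, fewer cells of a type and less RNA per cell cannot be told apart.

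The libraries grouped by area. Across genes, libraries of the same area correlated at 0.987 to 0.990, Bolgheri and Montalcino at 0.949 to 0.966, Bolgheri and Riccione at 0.972 to 0.983 and Montalcino and Riccione at 0.964 to 0.974. Total FPKM ran over 884462 to 994074 and genes with at least 1 FPKM over 15450 to 16070. The 10 most abundant genes took 17.5% to 25.6% of all FPKM. Riccione replicate 3 stood apart from the other Riccione libraries in the chaperone genes described below. Only some of the results that rest on it are given with and without it. Leaving it out gave 10340 genes in the F-test over areas, against 10686 with it.

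**Figure D1:**
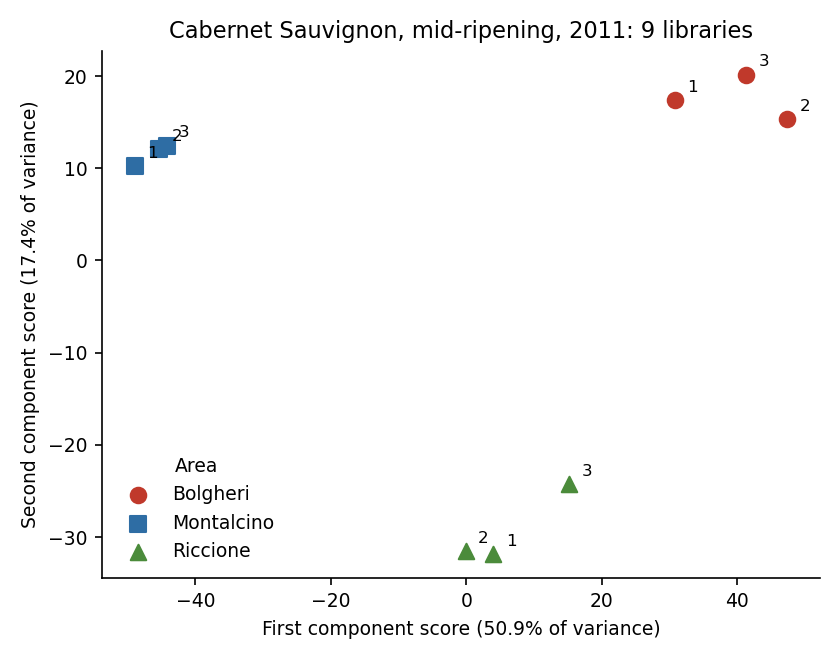
Scores of the 9 libraries on the first (x axis, 50.9% of variance) and second (y axis, 17.4%) principal components of all tested genes; numbers are replicates. Bolgheri (30.8 to 47.4) and Montalcino (-48.9 to -44.2) lie at opposite ends of the first component, with Riccione between them (-0.117 to 15.2) and apart on the second.

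Areas differed in a large share of the transcriptome, and with no further scaling Montalcino stood apart most often. Of 20443 genes, 10686 (52.3%) differed between areas in limma's F-test. Bolgheri and Montalcino differed in 9084 genes (44.4%), with 3569 (17.5%) higher in Bolgheri and 5515 (27%) lower. Bolgheri and Riccione differed in 4620 (22.6%), with 1762 (8.62%) higher and 2858 (14%) lower in Bolgheri. Montalcino and Riccione differed in 7250 (35.5%), with 4000 (19.6%) higher and 3250 (15.9%) lower in Montalcino. Each area's libraries serve in 2 of these pairs, so the pairs are not independent of each other. Most differences were small: at least 2-fold, on the log2(FPKM + 1) scale, were 650 higher and 564 lower for Bolgheri against Montalcino, 293 and 80 for Bolgheri against Riccione, and 453 and 355 for Montalcino against Riccione. The split of small differences depended on scaling. The share of called genes that were higher in Bolgheri was 39.3% against Montalcino and 38.1% against Riccione, but 49.9% and 52.4% after median-of-ratios scaling.

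Among the genes of the F-test, the highest mean was in Bolgheri for 2831 (26.5%), in Montalcino for 5255 (49.2%) and in Riccione for 2600 (24.3%). Large differences were arranged in another way. For 1542 genes (7.54% of those tested) all Bolgheri libraries lay above the other 6, of which 213 were at least 2-fold, 63 at least 4-fold and 40 at least 8-fold above the nearer area. All Montalcino libraries lay above the other 6 in 3604 genes (17.6%), of which 268 were at least 2-fold, 13 at least 4-fold and 1 at least 8-fold away. They lay below the other 6 in 2558 genes (12.5%), of which 270 were at least 2-fold, 65 at least 4-fold and 10 at least 8-fold away. Bolgheri was lowest without overlap in 2429 genes (11.9%), but only 46 of these were at least 2-fold away. Riccione was highest in 1105 (5.41%) and lowest in 791 (3.87%), with 12 and 25 at least 2-fold away. With no further scaling, Montalcino thus had the most genes outside the range of the other areas. Gaps of at least 8-fold were most numerous among the genes high in Bolgheri. The highest-mean and no-overlap counts were not recomputed after median-of-ratios scaling, on which the split of small differences depended. Nor were they, or the gene sets taken from them, recomputed without Riccione replicate 3.

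Mean levels of ripening-linked transcripts were close in all areas, while single genes differed in both directions. Over the 100 genes that rose most at ripening in Cabernet Sauvignon in 2012, the mean log2 level was 8.10, 7.94 and 8.04 in the Bolgheri libraries, 7.97, 7.93 and 7.95 in the Montalcino libraries and 7.98, 8.01 and 8.12 in the Riccione libraries. Bolgheri overlapped with both other areas on this list, Montalcino lay wholly below Riccione by a small margin, and all 9 libraries lay far above the 2.15 to 3.05 of the PV libraries of 2011. Over the 100 genes that fell most, it was 1.83, 1.75 and 1.68 in Bolgheri, 1.84, 1.85 and 1.82 in Montalcino and 1.42, 1.72 and 1.68 in Riccione, against 6.89 to 7.42 at PV; here the Montalcino libraries lay above the Riccione libraries by a small margin. Between Bolgheri and Montalcino, 25 of the 100 risen genes were higher and 25 lower, against 17.5% and 27% of all genes. Of the 100 fallen genes, 9 were higher and 24 lower in this pair. Between Montalcino and Riccione, 20 of the 100 fallen genes were higher in Montalcino, near the 19.6% of all genes, and 4 were lower, against 15.9%. The most abundant member of the class IV chitinase list, defence proteins of ripening berries, lay at 4918 to 11164 FPKM in every library. Of the 5 IDs of that list, 4 reached a mean of 1 FPKM in an area, as did 5 of the 9 thaumatin-like IDs. The tissue label itself was not tested. No list of seed transcripts with sure IDs was at hand, so seed carry-over was not tested.

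The widest group difference was in the small heat shock proteins, which were far higher in Bolgheri. All 17 IDs of the list were tested. Against Montalcino 16 were higher in Bolgheri and 0 lower, where 17.5% of all genes tested were higher; the median difference was 5.91 and a range of 1.48 to 7.02. Against Riccione 16 were higher and 0 lower (background 8.62%), with a median of 3.91 and a range of 0.62 to 5.30. Over all genes the medians were -0.04 and -0.02. Of the 20 largest rises that met the naming rule, 10 against Montalcino and 9 against Riccione were members of this list. The lists were chosen with earlier results of these data known, so these counts are no independent support. Montalcino was in turn below Riccione for 14 members (background 15.9%), with a median of -1.77.

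The most abundant member had 1365, 2765 and 2103 FPKM in the Bolgheri libraries, 132, 195 and 90.1 in the Montalcino libraries and 211, 77.5 and 655 in the Riccione libraries. Bolgheri was above both other areas without overlap, by 3.90 against Montalcino (SE 0.54, limma adjusted p = 4.3e-08) and 3.17 against Riccione, while Montalcino and Riccione overlapped (-0.73, SE 0.54, adjusted p = 0.33). The next member had 604, 1684 and 1282 FPKM in Bolgheri, 31.4, 44.9 and 27.1 in Montalcino and 125, 67.6 and 353 in Riccione. For this one all 3 areas were separate, with Bolgheri above Montalcino by 4.98 (SE 0.36, limma adjusted p = 1.3e-16) and above Riccione by 2.91, and Montalcino below Riccione by 2.07. The third in rank had 655, 1237 and 1514 FPKM in Bolgheri, 14.3, 24 and 16.8 in Montalcino and 43.4, 41.8 and 191 in Riccione, with differences of 5.82, 3.91 and -1.91. The fourth in rank had 415, 739 and 746 FPKM in Bolgheri, 4.53, 7.27 and 7.34 in Montalcino and 30.7, 17.1 and 96.1 in Riccione, with differences of 6.40, 4.00 and -2.40. Bolgheri was thus highest in each of these members. Bolgheri replicate 1 was the lowest of its area in 16 members, and Riccione replicate 3 the highest of its own in all 17.

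A member of low level showed the same order. Rank 15 had 58.5, 141 and 135 FPKM in Bolgheri, was listed at 0, 0 and 0.08 in Montalcino and had 0.48, 0.59 and 6.90 in Riccione. The exception was rank 14, with 65.1, 66.4 and 4.81 FPKM in Bolgheri, 0, 35.8 and 31.4 in Montalcino and 0, 60.9 and 115 in Riccione. Its replicates differed as much as the areas did, and it passed in no pair (limma adjusted p = 0.47, 0.87 and 0.74).

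**Figure D2:**
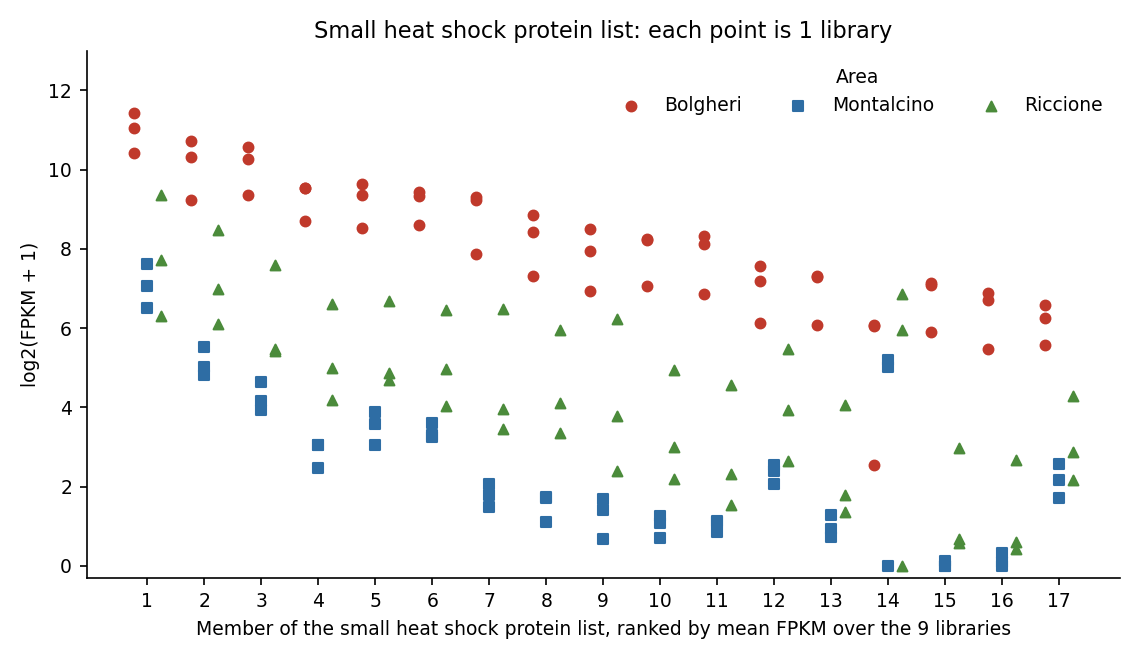
Level of each of the 17 small heat shock protein members (x axis, ranked by mean FPKM) in each library, as log2(FPKM + 1) (y axis). In 16 members every Bolgheri library lies above every Montalcino and Riccione library; rank 14 overlaps.

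Riccione replicate 3 widened the gap between Montalcino and Riccione. The mean log2 level of the 17 members was 7.42, 8.55 and 8.22 in the Bolgheri libraries, 2.11, 2.80 and 2.47 in the Montalcino libraries and 3.63, 3.36 and 5.86 in the Riccione libraries. Without the library at 5.86, Montalcino was below Riccione for 7 members with a median of -1.12, and Bolgheri was above Riccione for 16 with a median of 4.62. Fits to the 36 MR libraries or to the 9 libraries alone left 9 members lower in Montalcino than in Riccione. The direction of each list median held under median-of-ratios scaling (-1.84 for Montalcino against Riccione) and quantile normalization (-1.81).

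Among the 24 groups of the series, the Bolgheri group had the highest mean level of this list (8.06, SD 0.58, n = 3), the Riccione group ranked 12 (4.28, SD 1.37, n = 3) and the Montalcino group 23 (2.46, SD 0.34, n = 3). In Cabernet Sauvignon at MR in 2012 the libraries stood at 4.07, 4.45 and 4.82 in Bolgheri, 3.82, 2.02 and 4.50 in Montalcino and 3.89, 3.31 and 4.91 in Riccione, and the areas overlapped. Of the 17 members, 7 were then higher and 0 lower in Bolgheri than in Montalcino (background 21.9% higher, median 0.94), and 1 was higher than in Riccione (background 17.6%). The differences between Bolgheri and the other areas were greater in 2011 than in 2012 for 16 members against Montalcino (background 12.6%) and for 16 against Riccione (background 12.1%), with median differences of 4.98 and 3.28. For Montalcino against Riccione, 3 members differed between seasons, all negative (background 5.87%, median -0.87). In Sangiovese at MR in 2011 the order of areas was another one, with 5.75, 6.23 and 4.4 in Bolgheri, 3.74, 3.19 and 3.58 in Montalcino and 7.21, 6.28 and 7.13 in Riccione. There 15 members were higher and 0 lower in Bolgheri than in Montalcino (background 7.17% higher, median 2.34). By contrast, 0 members were higher and 13 lower in Bolgheri than in Riccione (backgrounds 6.21% and 8.57%), and the difference between Bolgheri and Riccione was greater in Cabernet Sauvignon than in Sangiovese for 16 members (background 9.33%, median 5.70). At PV in 2011, Cabernet Sauvignon stood at 7.01, 7.38 and 7.02 in Bolgheri, 6.36, 6.46 and 6.50 in Montalcino and 3.78, 4.10 and 3.99 in Riccione. Bolgheri and Montalcino thus both lay above Riccione at PV: 16 members were higher and 0 lower in Bolgheri than in Riccione (backgrounds 13.3% and 22.1%), and 3 were higher in Bolgheri than in Montalcino (background 5.72%). In addition, 16 members differed between stages for Montalcino against Riccione (interaction negative, background 13.9%, median -4.16). For Bolgheri against Montalcino the interaction with stage was positive in 15 members (background 14.2%, median 5.30). For Bolgheri against Riccione, 4 members were positive and 1 negative (backgrounds 13.6% and 10.5%), with a median of 0.56.

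**Figure D3:**
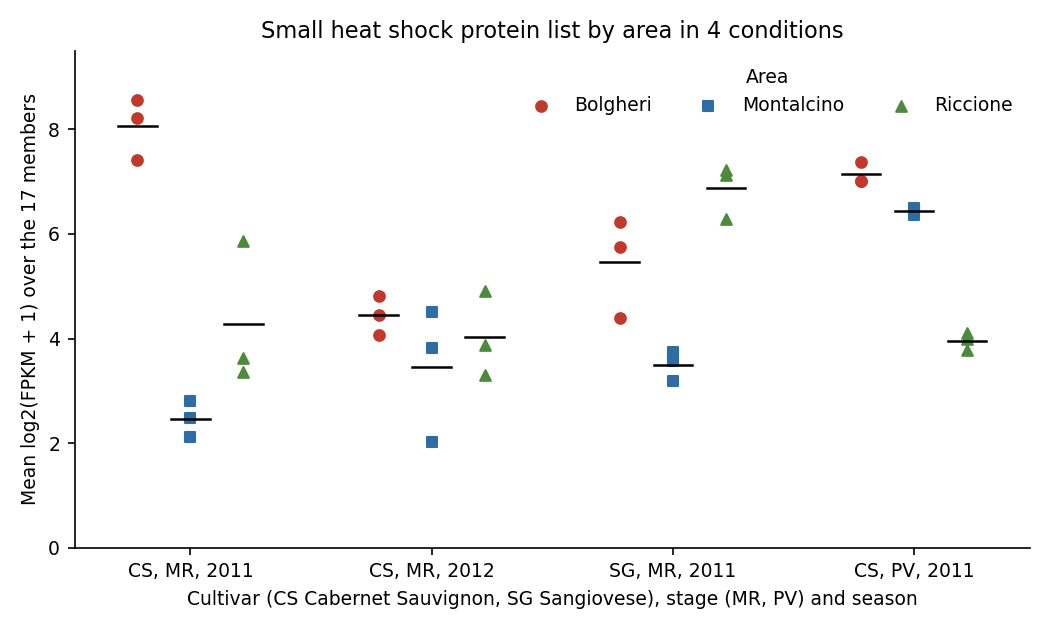
Mean log2(FPKM + 1) over the 17 small heat shock protein members (y axis) by area in 4 combinations of cultivar, stage and season (x axis); each point is 1 library and each bar the mean of 3. Bolgheri is at 7.42 to 8.55 in Cabernet Sauvignon at MR in 2011, and Riccione is highest in Sangiovese at MR in 2011 (6.28 to 7.21).

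The 213 genes at least 2-fold higher in Bolgheri than in either other area, chosen on this season's values, were followed in the same conditions. This set includes small heat shock members, so it is not independent of that list. The mean log2 level of the 213 was 4.92, 5.46 and 5.41 in Bolgheri, 2.34, 2.49 and 2.46 in Montalcino and 3.13, 2.98 and 3.79 in Riccione. In Cabernet Sauvignon at MR in 2012, 27 of the 213 were higher in Bolgheri than in Montalcino and 34 lower, and 24 were higher than in Riccione and 57 lower. Both shares of higher genes (12.7% and 11.3%) were below those of all genes (21.9% and 17.6%). The share lower than in Montalcino (16.0%) was near the 17.3% of all genes. The share lower than in Riccione (26.8%) was above the 17.1% of all genes. In Sangiovese at MR in 2011, 73 (34.3%) were higher in Bolgheri than in Montalcino, against 7.17% of all genes, whereas 129 (60.6%) were lower in Bolgheri than in Riccione, against 8.57% of all genes. At PV in 2011, 100 (46.9%) were higher in Bolgheri than in Riccione, against 13.3% of all genes.

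Expansins, which loosen cell walls as the berry softens and grows, were highest in Montalcino for most members. Of 6 members, 4 were lower in Bolgheri than in Montalcino (background 27%) and 0 higher, with a median of -1.83. Against Riccione 3 were lower in Bolgheri (background 14%), with a median of -0.65, and 4 were higher in Montalcino than in Riccione (background 19.6%), with a median of 0.79. The most abundant member had 816, 852 and 1077 FPKM in Bolgheri, 2570, 1980 and 1868 in Montalcino and 1198, 1251 and 1306 in Riccione. All 3 areas were separate for it, but only the differences from Montalcino passed: -1.22 for Bolgheri against Montalcino (SE 0.22, limma adjusted p = 8.9e-06) and 0.76 for Montalcino against Riccione. The second in rank had 88.2, 57.5 and 80.2 FPKM in Bolgheri, 440, 464 and 433 in Montalcino and 167, 246 and 209 in Riccione. It differed in every pair, by -2.57 (SE 0.25, limma adjusted p = 1.6e-12), -1.45 and 1.12. The third in rank had 25.8, 30.4 and 29.7 FPKM in Bolgheri, 185, 177 and 142 in Montalcino and 52.7, 52.8 and 49.8 in Riccione, with differences of -2.51, -0.84 and 1.67. The 2 members of lowest level lay at 1.47 to 8.44 FPKM and showed no gap between Bolgheri and Montalcino that passed.

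The Montalcino group had the highest expansin level of all 24 groups (6.36, 6.26 and 6.28 on the log2 scale), with 4.92, 4.74 and 4.85 in Bolgheri and 5.27, 5.54 and 5.61 in Riccione. In Cabernet Sauvignon at MR in 2012, 0 members differed between Bolgheri and Montalcino (background 39.1%). There 3 were higher in Bolgheri than in Riccione (background 17.6%). The difference from the 2012 season itself passed as negative in 4 of 6 members for Bolgheri against Montalcino (background 22.6%, median -1.59) and in 4 for Bolgheri against Riccione (background 16%, median -1.52). The same number passed as negative against Sangiovese (medians -1.47 and -1.19, backgrounds 14.3% and 10.8%) and against PV (medians -1.98 and -1.11, backgrounds 19.6% and 10.5%).

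Pigment regulators of the MYBA list were mostly lower in Riccione than in the other areas. The list has 6 IDs, of which 5 were tested, and 1 of those was listed at 0 in all 9 libraries. In Montalcino 4 were higher than in Riccione (background 19.6%), with a median of 0.80, and in Bolgheri 3 were higher and 1 lower than in Riccione (backgrounds 8.62% and 14%), with a median of 0.64. Between Bolgheri and Montalcino 1 was lower (background 27%). The most abundant member had 131, 103 and 124 FPKM in Bolgheri, 125, 134 and 140 in Montalcino and 59.9, 68.7 and 105 in Riccione. Bolgheri (0.64, SE 0.19, limma adjusted p = 0.0088) and Montalcino (0.80, adjusted p = 0.00056) were above Riccione, although Riccione replicate 3 exceeded Bolgheri replicate 2. The second in rank had 57.3, 49.6 and 52.3 FPKM in Bolgheri, 41.2, 45.2 and 52.2 in Montalcino and 16.2, 20.1 and 30.7 in Riccione, without overlap between Riccione and the rest (1.26 and 1.06). The member that was lower in Bolgheri in both pairs is expressed at a low level, with 0.386, 0.202 and 0.198 FPKM in Bolgheri, 2.79, 3.64 and 2.86 in Montalcino and 0.585, 0.990 and 0.776 in Riccione (-1.70 against Montalcino); its call against Riccione was lost without Bolgheri replicate 3 or Riccione replicate 2. With a pseudocount of 0.1 the members higher in Bolgheri than in Riccione numbered 0 and those higher in Montalcino than in Riccione 1. In the other conditions, 4 members were higher in Montalcino than in Riccione in Cabernet Sauvignon at MR in 2012 (median 1.34, background 16%), 4 in Sangiovese at MR in 2011 (median 0.62, background 22.9%) and 0 at PV (background 9.28%).

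The enzymes that attach sugars, methyl and acyl groups to anthocyanins and the carriers that move them into the vacuole were, by contrast, highest in Bolgheri for several members. Of 8, 4 were higher and 2 lower in Bolgheri than in Montalcino (backgrounds 17.5% and 27%, median 0.40), and 3 were higher than in Riccione (background 8.62%, median 0.39). Between Montalcino and Riccione 2 were higher (background 19.6%), with a median of -0.03. That median became 0.02 after quantile normalization and 0.12 without Riccione replicate 3. The most abundant member had 1763, 1623 and 1745 FPKM in Bolgheri, 1275, 1293 and 1431 in Montalcino and 1140, 1297 and 1631 in Riccione, and it passed in no pair. The third in rank had 210, 166 and 212 FPKM in Bolgheri, 111, 111 and 126 in Montalcino and 110, 129 and 159 in Riccione. Bolgheri was above both areas for it, by 0.75 (SE 0.15, limma adjusted p = 4e-05) and 0.57. The fifth in rank was likewise above both, by 0.76 and 0.72, with 113, 90.2 and 110 FPKM in Bolgheri, 58.6, 57.3 and 67.3 in Montalcino and 54.7, 58.7 and 76.9 in Riccione. The sixth in rank ran the other way, with 62.6, 46.7 and 60.8 FPKM in Bolgheri, 82.5, 109 and 99.7 in Montalcino and 44.0, 58.1 and 58 in Riccione, so that Montalcino was highest (-0.77 and 0.85). The count of 4 fell to 2 without Bolgheri replicate 1 or Montalcino replicate 2 and to 1 with a pseudocount of 0.1, and the 2 lower members became 1 when any Montalcino library or Bolgheri replicate 2 or 3 was left out. Without Riccione replicate 3, 5 members were higher in Bolgheri than in Riccione. In Cabernet Sauvignon at MR in 2012, 6 members were higher in Bolgheri than in Riccione (background 17.6%, median 0.95). In Sangiovese at MR in 2011 this number was 1 (background 6.21%). In Cabernet Sauvignon at PV in 2011, 2 were higher and 2 lower (backgrounds 13.3% and 22.1%).

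Of 9 early flavonoid genes upstream of the pigments, from chalcone synthase to leucoanthocyanidin dioxygenase, 2 were lower in Bolgheri than in Montalcino (background 27%). Between Bolgheri and Riccione 0 differed (background 22.6%), and 3 were higher in Montalcino than in Riccione (background 19.6%). In Cabernet Sauvignon at PV in 2011, 7 were higher in Bolgheri than in Riccione (background 13.3%). This number was 4 in Cabernet Sauvignon at MR in 2012 (background 17.6%) and 0 in Sangiovese at MR in 2011 (background 6.21%). The flavonoid 3',5'-hydroxylases, which direct synthesis to blue-shifted pigments, had 13 of 16 IDs in the table and 8 tested. Of these, 2 were higher in Bolgheri than in Montalcino (background 17.5%) and 0 passed in either other pair (backgrounds 22.6% and 35.5%). The 2 became 1 with a pseudocount of 0.1, with stricter filters and in the fit to the 9 libraries. Against Riccione, 7 were higher in Bolgheri in Cabernet Sauvignon at MR in 2012 (background 17.6%). In Sangiovese at MR in 2011 this number was 6 (background 6.21%). In Cabernet Sauvignon at PV in 2011, 0 were higher and 1 lower (backgrounds 13.3% and 22.1%). The 2 flavonoid 3'-hydroxylases, which direct synthesis to red pigments, were both lower in Bolgheri (median -0.37, background 14%) and in Montalcino (median -0.41, background 15.9%) than in Riccione. For Bolgheri the 2 became 0 without Bolgheri replicate 3, Riccione replicate 2 or Riccione replicate 3, and 1 under both scalings, both smaller fits and without Bolgheri or Riccione replicate 1. For Montalcino they became 1 without Montalcino replicate 1 or 2 or Riccione replicate 3. Partners of the MYB activators (bHLH, WDR and MYB5 factors) were low in Bolgheri: 4 of 5 were lower than in Montalcino (background 27%, median -0.61) and 4 lower than in Riccione (background 14%, median -0.35), of which 2 passed against Riccione without Bolgheri replicate 2. The Bolgheri group had the lowest level of this list among the 24 groups (3.71, 3.55 and 3.57), with 4.2, 4.28 and 4.28 in Montalcino and 3.91, 4.04 and 3.97 in Riccione. Of 6 proanthocyanidin genes, which make the tannins of skin and seed, 2 were lower in Bolgheri than in Montalcino (background 27%; 1 in the fit to the 9 libraries and without Montalcino replicate 3), and 2 were higher in Montalcino than in Riccione (background 19.6%).

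Flavonol genes, which code for flavonol synthases, their MYB activator and glycosyltransferases, were mostly higher in Montalcino than in Riccione. Of 6 members, 4 were lower in Bolgheri than in Montalcino (background 27%, median -0.79), and 5 were higher and 1 lower in Montalcino than in Riccione (backgrounds 19.6% and 15.9%, median 1.45). Between Bolgheri and Riccione 2 were higher and 1 lower (backgrounds 8.62% and 14%), and the median was 0.27. The lower call in this pair was lost without Riccione replicate 2. The most abundant member had 28.1, 22.9 and 29.4 FPKM in Bolgheri, 32.1, 51.1 and 28.9 in Montalcino and 7.47, 6.26 and 11.3 in Riccione. Riccione lay below both other areas without overlap, by 1.6 for Bolgheri (SE 0.26, limma adjusted p = 6.4e-06) and 2.03 for Montalcino (adjusted p = 1.9e-08), while Bolgheri and Montalcino overlapped. The third in rank had 5.35, 3.25 and 5.99 FPKM in Bolgheri, 12.3, 16.8 and 12.8 in Montalcino and 3.00, 3.69 and 4.50 in Riccione, so that Montalcino alone was high (-1.37 and 1.66). The second in rank was the one lower in Montalcino than in Riccione, with 20.4, 28.3 and 19.8 FPKM in Bolgheri, 16.3, 12.9 and 17.8 in Montalcino and 31.9, 34.5 and 25.3 in Riccione (-0.92). That call was lost without Montalcino replicate 2, Riccione replicate 1 or Riccione replicate 2.

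The Montalcino flavonol level was the highest of the 24 groups (3.34, 3.72 and 3.42), with 2.77, 2.62 and 2.80 in Bolgheri and 2.24, 2.37 and 2.50 in Riccione. Between Montalcino and Riccione the difference was greater in 2011 than in 2012 for 5 members (background 9.7%, median 0.92) and greater at MR than at PV for 4 (background 21.6%, median 1.51). Sangiovese at MR in 2011 had 4 members higher and 1 lower in Montalcino than in Riccione (backgrounds 22.9% and 12%, median 1.56). For this pair 1 member differed between cultivars (background 17.6%).

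Light response genes, the HY5-type factors and an early light-induced protein, were lower in Riccione. All 3 were higher in Montalcino than in Riccione (background 19.6%, median 0.80) and 2 were higher in Bolgheri than in Riccione (background 8.62%), which became 1 without Bolgheri replicate 3 or Riccione replicate 1. The most abundant had 1037, 1078 and 1248 FPKM in Bolgheri, 906, 1053 and 815 in Montalcino and 467, 502 and 632 in Riccione. Riccione did not overlap with either area for it (1.08 and 0.80), and the other areas overlapped.

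Carotenoid synthesis genes, from phytoene synthase to the xanthophyll cycle, were mostly higher in Montalcino than in Riccione. Of 10 members, 6 were lower in Bolgheri than in Montalcino (background 27%, median -0.43) and 9 were higher in Montalcino than in Riccione (background 19.6%, median 0.60). The most abundant had 66.3, 56.9 and 58.2 FPKM in Bolgheri, 127, 110 and 111 in Montalcino and 65.7, 76.3 and 71.7 in Riccione, with Montalcino above both (-0.93, SE 0.11, limma adjusted p = 1.6e-09, and 0.70). The second in rank had 19.8, 14.4 and 17.3 FPKM in Bolgheri, 30.8, 31.3 and 32.5 in Montalcino and 20.7, 24.1 and 22.5 in Riccione, and its 3 areas were separate. Between Bolgheri and Riccione 3 were higher and 1 lower (backgrounds 8.62% and 14%, median 0.07). These became 1 higher without Bolgheri replicate 3 and 0 lower without Bolgheri replicate 2. The median became -0.05 without Bolgheri replicate 1 and -0.03 without Riccione replicate 1. In Cabernet Sauvignon at MR in 2012, 9 members were again higher in Montalcino than in Riccione (background 16%, median 0.62). For this pair 0 differed between seasons (background 15.6%). Carotenoid cleavage dioxygenases, which release aroma compounds, had 2 of 3 members lower in Montalcino than in Riccione (background 15.9%). One had 11.4, 12.4 and 12 FPKM in Bolgheri, 8.98, 7.89 and 9.62 in Montalcino and 42.2, 45.5 and 23.1 in Riccione, so that Riccione stood apart (-1.49 and -1.89).

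All 3 invertases, which split sucrose, were higher in Montalcino than in Riccione (background 19.6%, median 0.71) and 2 lower in Bolgheri than in Montalcino (background 27%). Among 9 sugar transporters, 3 were lower in Bolgheri than in Montalcino, a share near the background of 27%. Between Montalcino and Riccione 3 were higher (background 19.6%) and 1 was lower (background 15.9%), the last lost with a pseudocount of 5, in the fit to the 36 MR libraries and without replicate 2 or 3 of either area. The most abundant transporter had 588, 461 and 570 FPKM in Bolgheri, 530, 494 and 549 in Montalcino and 590, 440 and 434 in Riccione, and passed in no pair. The second had 156, 146 and 168 FPKM in Bolgheri, 260, 262 and 262 in Montalcino and 173, 154 and 133 in Riccione, and was highest in Montalcino without overlap (-0.74 and 0.77). Of 3 dioxygenases of abscisic acid synthesis, the hormone linked to grape ripening, 2 were lower in Bolgheri than in Montalcino (background 27%; 1 without Bolgheri replicate 3) and 2 higher in Montalcino than in Riccione (background 19.6%). The second count became 1 with a pseudocount of 5, with quantile normalization and without any 1 of the Montalcino libraries or Riccione replicate 1 or 2. One of them had 10.5, 8.58 and 11.9 FPKM in Bolgheri, 21.3, 17.0 and 18.8 in Montalcino and 10.2, 9.34 and 10.2 in Riccione, with Montalcino above both areas (-0.83 and 0.87).

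Of 7 NAC factors linked to the onset of ripening, 2 were higher and 2 lower in Bolgheri than in Montalcino (backgrounds 17.5% and 27%). The widest difference had 18.7, 16.6 and 20.0 FPKM in Bolgheri, 4.25, 5.41 and 5.49 in Montalcino and 13.1, 13.3 and 17.5 in Riccione, with Montalcino low (1.69, SE 0.22, limma adjusted p = 1.2e-08, and -1.36). The most abundant ran the other way, with 42.7, 24.9 and 32.8 FPKM in Bolgheri, 77.9, 70.2 and 80 in Montalcino and 56.8, 49.8 and 47.7 in Riccione (-1.19, -0.63 and 0.56). Members of this list thus did not share a direction.

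Stilbene synthases, which make resveratrol, were low at this stage: of 49 IDs 47 are in the table and 37 were tested, and 8 had a mean of at least 1 FPKM in any of the 3 areas. In Bolgheri 2 were lower than in Montalcino (background 27%) and 4 lower than in Riccione (background 14%). The most abundant had 0.511, 0.251 and 0.303 FPKM in Bolgheri, 0.665, 1.07 and 0.592 in Montalcino and 0.932, 6.00 and 0.947 in Riccione, where replicate 2 stood apart. The count of 4 became 0 without Riccione replicate 2, 7 without Riccione replicate 3 and 11 after quantile normalization. The count of 2 ran over 0 to 5 under the alternatives, with 0 without replicate 2 or 3 of either area. Of 10 phenylalanine ammonia-lyases tested, which feed the pathway, 1 was lower in Bolgheri in each of its pairs, both below background. Those counts ran over 0 to 2 against Montalcino, with 0 without Bolgheri replicate 2 or Montalcino replicate 2 or 3, and over 0 to 4 against Riccione, with 0 without any 1 of the Bolgheri libraries or Riccione replicate 2 and 2 without Riccione replicate 3.

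Defence proteins of ripening berries included the most abundant transcripts of the lists. The most abundant class IV chitinase had 5737, 6052 and 5928 FPKM in Bolgheri, 11164, 9695 and 9698 in Montalcino and 4918, 6010 and 6039 in Riccione. Montalcino lay above the rest, but its differences did not pass (-0.78 and 0.85, SE 0.39, limma adjusted p = 0.10 and 0.089). Of 4 chitinases tested, 1 was lower in Bolgheri than in Montalcino (background 27%) and 1 higher in Montalcino than in Riccione (background 19.6%); in the fit to the 9 libraries these were 3 and 2, and with a pseudocount of 0.1 both were 0. Of 8 thaumatin-like proteins tested, 5 of which reached 1 FPKM in an area, 1 passed in each of these pairs in the same directions. In the fit to the 9 libraries both counts were 3. The first was 0 without any 1 of the Bolgheri or Montalcino libraries, and the second without any 1 of the Montalcino libraries or Riccione replicate 1 or 3. Of 9 PR-10 proteins tested, 2 were lower in Bolgheri than in Montalcino (background 27%) and 2 higher in Montalcino than in Riccione (background 19.6%). The last count became 1 without Montalcino replicate 2 or 3 or Riccione replicate 3.

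Small lists of aroma and precursor genes had few calls, several of which were lost under an alternative. Of 3 lipoxygenases, which make green leaf aroma, 1 was higher and 1 lower in Bolgheri than in Montalcino (backgrounds 17.5% and 27%). The lower one was lost without replicate 2 of either area. Of 3 methoxypyrazine methyltransferases, which make green pepper aroma, 1 was lower in Montalcino than in Riccione (background 15.9%). It was lost without Montalcino replicate 1 or 3 or Riccione replicate 3. Of 7 cinnamate hydroxylases and coumarate-CoA ligases, 2 were lower in Bolgheri than in Montalcino (background 27%), or 1 without Bolgheri replicate 2 or Montalcino replicate 2 or 3. Of 3 abscisic acid hydroxylases 1 was lower in Bolgheri than in Montalcino (background 27%), or 2 in the fit to the 9 libraries. Of the pair of MYB activators of stilbene synthases, 1 was higher in Bolgheri than in Montalcino (background 17.5%), and it was lost in the fit to the 9 libraries and without replicate 1 of either area.

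**Figure D4:**
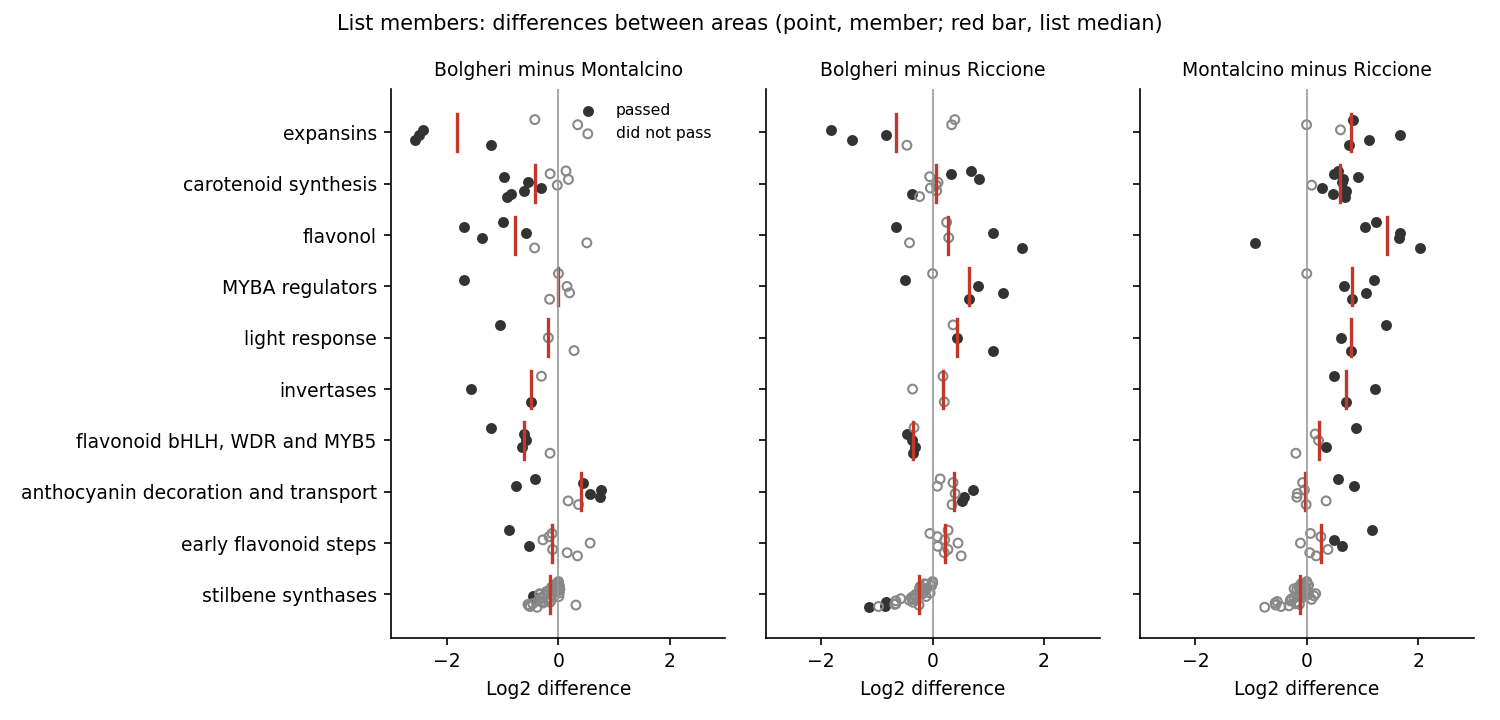
Log2 difference (x axis) of each member of 10 lists (y axis) for the 3 pairs of areas; filled points passed the test, open points did not, and red bars are list medians. Expansins lie lowest for Bolgheri minus Montalcino (median -1.83) and flavonol genes highest for Montalcino minus Riccione (median 1.45).

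Of the single genes with the largest differences, named by ID because no table at hand gives their names, several were near 0 FPKM in 1 area. Of these IDs, VIT_04s0008g01590 and VIT_14s0108g01020 are also members of the lists above, so their values are not separate results. VIT_19s0085g01050 had 202, 476 and 609 FPKM in Bolgheri, 1.05, 1.69 and 1.47 in Montalcino and 4.33, 2.29 and 42.5 in Riccione. Bolgheri exceeded Montalcino by 7.35 (SE 0.68, limma adjusted p = 6.7e-13) and Riccione by 5.41 (adjusted p = 2.2e-08), and Riccione replicate 3 was again the highest of its area. VIT_04s0008g01590 had 233, 599 and 638 FPKM in Bolgheri, 1.8, 3.21 and 2.49 in Montalcino and 14.5, 10.1 and 89.0 in Riccione, and exceeded Montalcino by 7.02 (SE 0.67, limma adjusted p = 1.5e-12). On the lower side, VIT_03s0091g00160 had 3.13, 2.46 and 6.31 FPKM in Bolgheri, 28.3, 60.6 and 34 in Montalcino and 1.02, 5.10 and 0.922 in Riccione, a difference of -3.08 between Bolgheri and Montalcino (SE 0.72, limma adjusted p = 0.00039). VIT_18s0089g00160 had 0.798, 1.04 and 1.08 FPKM in Bolgheri, 17.5, 12.5 and 13.2 in Montalcino and 7.00, 8.74 and 8.81 in Riccione. It was lower in Bolgheri than in Montalcino by 2.95 (SE 0.19, limma adjusted p = 1.4e-18), with all 3 areas separate.

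Between Bolgheri and Riccione, VIT_14s0066g01090 had 8.53, 10.8 and 8.78 FPKM in Bolgheri, 9.17, 7.31 and 12.4 in Montalcino and 33.1, 39.4 and 37.1 in Riccione. It was high in Riccione alone, with -1.86 for Bolgheri against Riccione (SE 0.26, limma adjusted p = 2.1e-07). VIT_14s0108g01020 had 11.5, 9.34 and 5.01 FPKM in Bolgheri, 45.6, 47.1 and 53.7 in Montalcino and 22.7, 37.2 and 37.3 in Riccione, and was low in Bolgheri (-1.83 against Riccione, SE 0.45, limma adjusted p = 0.0017). VIT_13s0019g02190 also met the naming rule, with 472, 1011 and 2967 FPKM in Bolgheri and 1102, 1126 and 547 in Montalcino, and was listed at 0 in all 3 Riccione libraries. It was listed at 0 in 44 of the 72 libraries and mixed zeros with high values within 14 of the 24 groups, so no fold is given. Its limma adjusted p was 0.015 for Bolgheri against Riccione, or 0.061 without Bolgheri replicate 3, and 0.013 for Montalcino against Riccione.

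Between Montalcino and Riccione, VIT_01s0026g02400 had 15.1, 16.9 and 24.4 FPKM in Bolgheri, 99.0, 198 and 117 in Montalcino and 0.295, 0.560 and 0.629 in Riccione. The 3 areas were separate, with Montalcino above Riccione by 6.48 (SE 0.26, limma adjusted p = 1.7e-25). At MR it was also high in Montalcino in Cabernet Sauvignon in 2012 (mean 24.6 FPKM) and in Sangiovese in 2011 (mean 77.6 FPKM). Bolgheri had 0.228 and 0.579 FPKM there and Riccione 1.53 and 1.13. In Sangiovese at MR in 2012 it was low in every area, with means of 0.766 FPKM in Bolgheri, 1.41 in Montalcino and 0.205 in Riccione. In Cabernet Sauvignon at PV in 2011 it had 0.879 FPKM in Bolgheri, 0.574 in Montalcino and 1.59 in Riccione. VIT_03s0063g01760 had 180, 159 and 146 FPKM in Bolgheri, 12.7, 16.1 and 7.12 in Montalcino and 170, 149 and 146 in Riccione, a difference of -3.65 between Montalcino and Riccione (SE 0.79, limma adjusted p = 0.00019). VIT_08s0056g01300 had 37, 41.4 and 37.7 FPKM in Bolgheri, 2.41, 3.28 and 2.39 in Montalcino and 48.2, 46.2 and 39.3 in Riccione, a difference of -3.63 (SE 0.40, limma adjusted p = 4e-10). Both were low in Montalcino alone, and both were also lowest there in Cabernet Sauvignon at MR in 2012, with means of 39.1 FPKM for VIT_03s0063g01760 and 6.06 FPKM for VIT_08s0056g01300. In Sangiovese at MR in 2011 both again had their lowest mean in Montalcino. VIT_03s0063g01760 averaged 32.5 FPKM in Bolgheri, 10.7 in Montalcino and 69.4 in Riccione in that condition. The means of VIT_08s0056g01300 were 6.76, 1.95 and 19.9 FPKM in the same order. In Sangiovese at MR in 2012 Montalcino was instead the highest area for both. VIT_03s0063g01760 averaged 40.1 FPKM in Bolgheri, 65.4 in Montalcino and 17.6 in Riccione there, and VIT_08s0056g01300 averaged 5.52 FPKM in Bolgheri, 14.5 in Montalcino and 5.00 in Riccione.

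Genes that set Montalcino apart in 2011 were followed in the other conditions. For the 268 genes at least 2-fold higher in Montalcino than in either other area, 174 (64.9%) were also lower in Bolgheri than in Montalcino in Cabernet Sauvignon at MR in 2012, against 17.3% of all genes, and 6 were higher. In that season 194 (72.4%) were higher in Montalcino than in Riccione, against 16% of all genes, and 5 were lower. In Sangiovese at MR in 2011, 157 (58.6%) were higher in Montalcino than in Riccione, against 22.9% of all genes, but 59 (22%) were lower in Bolgheri than in Montalcino, near the 19.7% of all genes. At PV in 2011, 11 were lower in Bolgheri than in Montalcino (background 6.58%), and 11 were higher in Montalcino than in Riccione (background 9.28%) and 65 lower (background 15.7%). The mean log2 level of the set in Cabernet Sauvignon at MR in 2012 was 2.83 in Bolgheri (SD 0.12), 3.61 in Montalcino (SD 0.05) and 2.69 in Riccione (SD 0.15, n = 3 each).

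For the 270 genes at least 2-fold lower in Montalcino than in either other area, the repeat was closest in Sangiovese of the same season. There 131 (48.5%) were higher in Bolgheri than in Montalcino, against 7.17% of all genes, and 233 (86.3%) lower in Montalcino than in Riccione, against 12% of all genes. In Cabernet Sauvignon at MR in 2012 these numbers were 82 (30.4%, against 21.9%) and 142 (52.6%, against 20.6%). At PV in 2011, 13 were lower in Montalcino than in Riccione (background 15.7%) and 86 (31.9%) higher (background 9.28%). Within each condition these pairs share the Montalcino libraries.

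**Figure D5:**
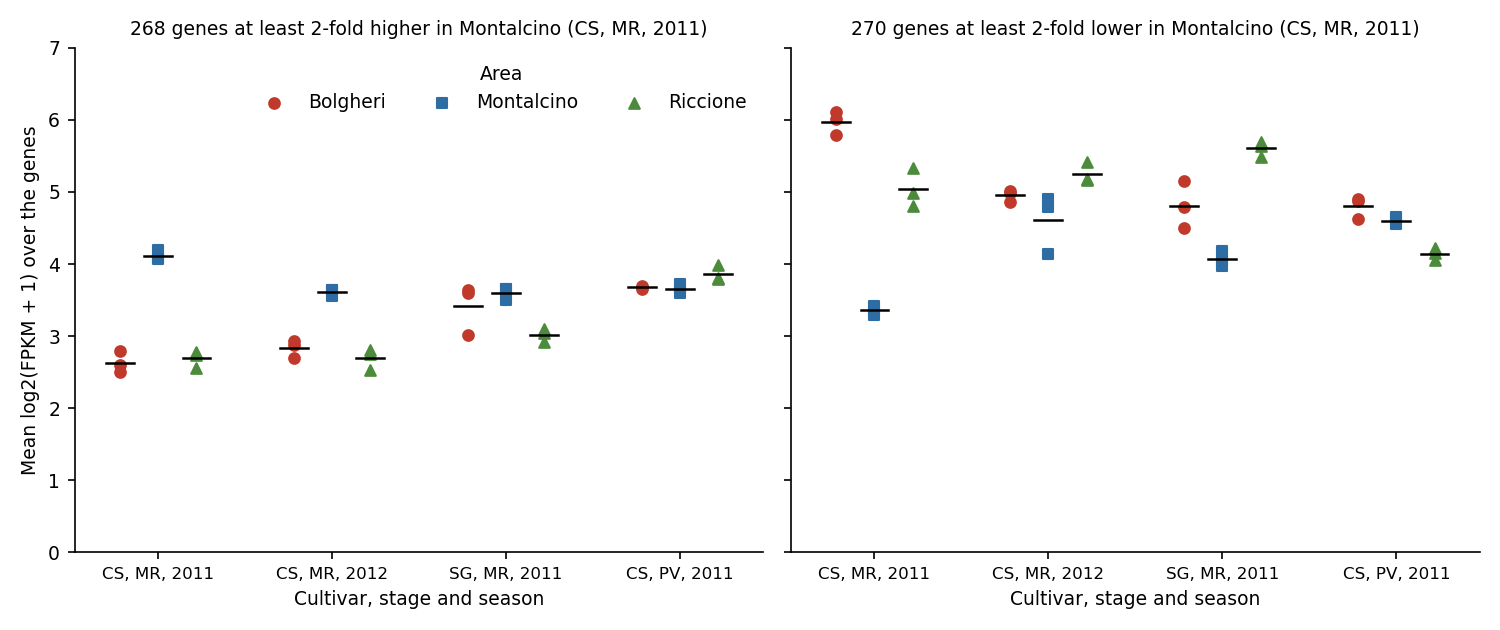
Mean log2(FPKM + 1) (y axis) of the 268 genes at least 2-fold higher (left) and the 270 at least 2-fold lower (right) in Montalcino, by area and condition (x axis; CS Cabernet Sauvignon, SG Sangiovese); points are libraries and bars means of 3. The first condition on each axis chose the genes; in Cabernet Sauvignon at MR in 2012 the higher set stands at 3.61 in Montalcino, above 2.83 in Bolgheri and 2.69 in Riccione.

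Over all genes, each pair's difference was tested against the same pair in the other conditions. Between 2011 and 2012 it changed in 7178 genes for Bolgheri against Montalcino (35.1%), 5738 for Bolgheri against Riccione (28.1%) and 3182 for Montalcino against Riccione (15.6%). Between Cabernet Sauvignon and Sangiovese it changed in 6505 (31.8%), 4114 (20.1%) and 3594 (17.6%) genes. Between MR and PV it changed in 6906 (33.8%), 4916 (24%) and 7251 (35.5%) genes. The contrast of Montalcino with Riccione in Cabernet Sauvignon at MR had the fewest genes that changed between seasons, and its own counts were 7250 in 2011 and 7472 (36.6%) in 2012. Bolgheri and Montalcino differed in 9084 genes in 2011 and 8000 (39.1%) in 2012, and Bolgheri and Riccione in 4620 and 7079 (34.6%). The labels name no sequencing batch, so a batch that follows the season cannot be told apart from it.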

How the data were processed

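Pericarp RNA was profiled in 72 libraries from 24 groups of 3, of which 9 are described. Per the labels' protocols, the TruSeq libraries, from total RNA, carry no strand. Tools listed in the submitters' processing notes are TopHat2 2.0.9, Cufflinks 2.1.1 and CASAVA 1.8.2; their options, the build and gene models were not given in the sources used here. In the deposited table, each column holds FPKM made by the authors for 29971 gene IDs in 1 library. FPKM values are shares of a library, and abundant transcripts that rise lower all others.

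The 20443 genes with a mean of at least 1 FPKM in at least 1 of the 24 groups were tested as log2(FPKM + 1), with no further scaling, in limma 3.58.1 under R 4.3.3. The model had a mean per group, 48 residual degrees of freedom and eBayes with trend, and p-values were two-sided and Benjamini-Hochberg adjusted at 0.05. Contrasts were the F-test over areas, the 3 pairs, and interactions of each pair with season, cultivar and stage. The fit was tested on simulated data.

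Members and lists were chosen with earlier results of these data known. List IDs were recalled from published gene names; the RefSeq table at hand (29591 genes) matched 0 IDs, so gene names, positions and sequences are not given. Lists are described by counts and medians, with no list test. Named genes, at most 2 each way per pair, had the largest called differences, with a mean of at least 10 FPKM in the higher area, no overlap between both areas' libraries, and no area mixing a 0 with a value of at least 10 FPKM. The genes that rose or fell most at ripening were chosen on the 18 Cabernet Sauvignon libraries of 2012, among genes called between stages, moving the same way in every area and with at least 10 FPKM at the higher stage. Figures were drawn with matplotlib 3.10.9.

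Absolute depth is unknown, and no counting intervals are given. Relative depth, estimated from the steps between low values of 2619 genes, was 1.04 to 1.13 in Bolgheri, 0.939 to 0.959 in Montalcino and 0.818 to 0.966 in Riccione. At the fitted steps, 94.0% of 10536 values between 1.5 and 3.5 fragments lay within 0.1 of a whole number. Alternatives were pseudocounts of 0.1 and 5, every gene with a value above 0, a minimum of 5 FPKM, a filter within the 3 area groups, median-of-ratios scaling, quantile normalization, fits to the 36 MR or the 9 libraries, a robust spread, a log2 difference of at least 1, and each of the 9 libraries left out.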

Additional observations from a re-analysis of the deposited data

Results flagged for a closer look

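For 9 of the named genes the area difference itself differed between seasons, cultivars or stages by limma's interaction test (adjusted p below 0.05). The values below are interactions on the log2 scale, the difference in Cabernet Sauvignon at MR in 2011 minus that in the other condition.

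For Bolgheri minus Montalcino, VIT_19s0085g01050 differed by 7.21 from 2012, 4.38 from Sangiovese and 6.03 from PV. For Bolgheri minus Riccione it differed by 5.07 from 2012 and 7.43 from Sangiovese. Its values in Cabernet Sauvignon at MR in 2012 overlapped, with 5.12, 13.6 and 13.6 FPKM in Bolgheri, 13.4, 0.868 and 35.2 FPKM in Montalcino and 6.29, 3.14 and 20.3 FPKM in Riccione. VIT_04s0008g01590 differed in the same direction for Bolgheri minus Montalcino, by 6.41 from 2012, 4.33 from Sangiovese and 5.53 from PV.

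The Bolgheri minus Montalcino difference of VIT_03s0091g00160 changed by -3.69 against PV, where no library of these areas exceeded 3.84 FPKM. That of VIT_18s0089g00160 changed by -1.12 against 2012, -2.93 against Sangiovese and -3.19 against PV.

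For Bolgheri minus Riccione, VIT_14s0066g01090 changed by -1.41 against Sangiovese and -1.99 against PV, in both of which no library of these areas exceeded 1.33 FPKM. VIT_14s0108g01020 changed by -2.65 against 2012, -2.19 against Sangiovese and -2.76 against PV.

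For Montalcino minus Riccione, VIT_01s0026g02400 changed by 3.16 against 2012, 1.37 against Sangiovese and 7.15 against PV. The corresponding change against PV was -3.85 for VIT_03s0063g01760 and -3.28 for VIT_08s0056g01300.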

How the results depend on the processing

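No paired analysis was possible because the labels number no replicates and the numbers used here follow accession order only. Requiring a log2 difference of at least 1 left 1522 genes in the F-test, 1214 for Bolgheri minus Montalcino, 373 for Bolgheri minus Riccione and 808 for Montalcino minus Riccione. In the same order of pairs it left 1424, 949 and 516 genes for the change between seasons, 1276, 779 and 585 between cultivars, and 1438, 635 and 1383 between stages. Every other alternative kept these counts within 1.5 times; the filter within the 3 area groups and the fit to the 9 libraries give no interaction values. Leaving out each of the 9 libraries gave 9662 to 10409 genes in the F-test, and 7776 to 9071, 3321 to 4623 and 6083 to 7285 for the 3 pairs. The ranges were 6267 to 7164, 4960 to 5720 and 2419 to 3194 between seasons, 5648 to 6484, 3290 to 4219 and 2771 to 3635 between cultivars, and 5974 to 6910, 4289 to 4903 and 6483 to 7256 between stages. Without Riccione replicate 3, Bolgheri minus Riccione had 4223 genes and Montalcino minus Riccione 6276. Named genes kept their call in 239 of 240 recomputed values, the exception being VIT_13s0019g02190, and no value reversed. Of 3240 recomputed list counts 273 moved by over 1.5 times; for small lists a single call is enough for this, and counts of 1 or 2 should be read as unstable. List medians that changed sign under a scaling alternative were near 0. Leaving out 1 library changed the sign of further medians. For stilbene synthases, Montalcino minus Riccione went from -0.12 to 0.05 without Riccione replicate 2. For cinnamate hydroxylases and coumarate-CoA ligases, Bolgheri minus Riccione went from 0.15 to -0.03 without Bolgheri replicate 1. Values near 0 FPKM are least precise in Riccione replicate 3, the shallowest of the 9 libraries, and the 3 libraries per area measure only the spread within 1 site.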
